A study of Mus musculus with 8 samples.

Results

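The genes described here encode the subunits of the vacuolar proton pump, the lysosomal proteases called cathepsins, and the lysosomal membrane glycoproteins Lamp1 and Lamp2. They were chosen by symbol among the 22180 genes that a probe set with a single gene symbol names on the array: every gene starting with Atp6v, every gene written as Cts plus 1 letter, and Lamp1 and Lamp2. This gave 42 genes, 21 of them pump subunits and 18 cathepsins. The remaining 3 are Lamp1, Lamp2 and Atp6v1fnb, which carries the prefix because it neighbours the gene of pump subunit F and is not counted as a subunit here. Of these 42 genes, 36 were bright enough to be tested, and 6 lay among the dimmest 33.3% of all genes by their mean over the 8 arrays. Atp6v0c, subunit c of the pump, was not among the named genes and was not analysed here, and Tcirg1, subunit a3, falls outside the 42 because of its symbol.

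RNA came from the left epididymal fat pad, white adipose tissue that lies against the epididymis, of 8 male C57BL/6 mice, with 1 Affymetrix Mouse Gene 2.0 ST array per mouse. The GC+ group (4 mice) was given prednisolone, a synthetic glucocorticoid, every day in sweet potato puree at 40 mg/kg/m2, as the labels write the dose. The GC- group (4 mice) was given the puree alone, and is called vehicle. Both groups were weaned at 3 weeks onto an n-6 rich high-fat diet (45% of energy from fat), entered treatment at 6 weeks and were killed at 10 weeks of age, after 4 weeks of treatment. The fat pad was sampled whole, so each value is a sum over adipocytes, immune cells and any attached tissue, and fewer cells of a type cannot be told apart from less RNA per cell.

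The vacuolar ATPase is a rotary pump that spends ATP to move protons into lysosomes and endosomes and, in a few specialised epithelia, out of the cell. Its V1 sector sits in the cytosol and splits ATP at the A and B subunits, with stalk subunits C to H around them. The V0 sector lies in the membrane and carries the protons through a ring of proteolipids past subunit a. The acid it makes activates the cathepsins, which break down proteins delivered to the lysosome, and several subunits come in isoforms that are used by different cell types. In fat, lysosomes are prominent in macrophages that take up lipid, while the narrow and clear cells of the epididymis use the pump at their surface to acidify the duct. Many lysosomal genes carry the CLEAR element, an E-box bound by the transcription factor TFEB and its relatives.

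RefSeq promoters of assembly GRCm38.p6, 250 bases before to 50 after a transcript start, were held for 32 of the 42 genes. The 6-base E-box core CACGTG, which reads the same on both strands, was found in 9 of these 32 (28.1%), against 8.09% of all 27025 symbols with a promoter. The longer palindrome TCACGTGA, which contains that core, was found in 5 of 32 (15.6%), against 1.12% of all symbols. These shares describe letters in a fixed window and not binding. The 10 members without a held promoter, Ctsb and Atp6v1h among them, were not searched. The sites of 7 of the 9 are shown because they mark which members carry the core. The core or the longer palindrome is in capitals, 5′ to 3′ on the strand of the gene.
Atp6v0d1 (chr8:105566046-105566083, minus strand): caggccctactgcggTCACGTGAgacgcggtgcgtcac
Atp6v0e (chr17:26676383-26676420, plus strand): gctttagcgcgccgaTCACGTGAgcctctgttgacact
Atp6v1a (chr16:44139369-44139406, minus strand): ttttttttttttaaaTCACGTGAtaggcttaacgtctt
Ctsa (chr2:164833745-164833799, plus strand): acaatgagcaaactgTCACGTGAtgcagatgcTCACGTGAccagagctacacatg
Atp6v0b (chr4:117887326-117887381, minus strand): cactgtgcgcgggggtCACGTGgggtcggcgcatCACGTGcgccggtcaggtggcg
Lamp1 (chr8:13159084-13159167, plus strand): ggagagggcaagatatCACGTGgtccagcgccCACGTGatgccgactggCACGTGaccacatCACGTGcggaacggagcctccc
Ctsl (chr13:64370735-64370770, minus strand): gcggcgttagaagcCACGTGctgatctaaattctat

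The Lamp1 stretch held 4 copies of the core, and the Ctsa and Atp6v0b stretches 2 copies each. Ctsf, with 1 copy, and Ctsd were the other members with the core. The 250 bases before the start of Ctsd (cathepsin D) are given whole because this gene had the lowest p of the 36, and those of Atp6v1g3 (pump subunit G3) because its values split the mice most sharply within 1 group. Ctsd held both the palindrome, whose core starts 98 bases before the start, and a further core 245 bases before it. No core was found in the Atp6v1g3 window.
Ctsd (chr7:142387828-142388077, minus strand): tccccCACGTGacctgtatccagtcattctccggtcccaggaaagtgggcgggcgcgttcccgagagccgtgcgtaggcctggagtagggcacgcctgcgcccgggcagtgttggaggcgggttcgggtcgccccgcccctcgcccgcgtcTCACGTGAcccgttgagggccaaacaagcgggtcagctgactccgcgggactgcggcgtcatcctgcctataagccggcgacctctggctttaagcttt
Atp6v1g3 (chr1:138273488-138273737, plus strand): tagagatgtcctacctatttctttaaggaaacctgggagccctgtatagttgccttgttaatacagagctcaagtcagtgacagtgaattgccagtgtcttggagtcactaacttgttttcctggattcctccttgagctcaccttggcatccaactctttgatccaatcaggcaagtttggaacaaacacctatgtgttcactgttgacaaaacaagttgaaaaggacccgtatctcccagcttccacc

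Values below are the deposited log2 values, on which 1 unit is a doubling of signal, and each mouse is numbered as the replicate in its label. A difference is the prednisolone mean minus the vehicle mean with its standard error from limma (n = 4 per group), and p-values were adjusted over all 14787 tested genes. The adipocyte markers Adipoq and Plin1 read between 11.52 and 12.29 on every array. Of all 9 tested adipocyte markers 8 were higher and 1 lower in prednisolone mice, against 54.6% of all tested genes higher. Their median difference was 0.13, with the lowest p for Lep (0.39 ± 0.13, limma adjusted p = 0.768). The mean deviation of the 9 was lowest in vehicle mouse 1 (-0.27), so adipocyte signal was not even over the arrays. Epididymal transcripts were bright on some arrays of both groups: the mean deviation of 16 principal cell markers from their 8-array means was highest in vehicle mouse 1 (3.42), prednisolone mouse 2 (2.75) and vehicle mouse 4 (2.25), while the other mice lay between -2.58 and 0.39. These 3 arrays are called the epididymis-rich arrays, and for the members shown with the value of every mouse the difference without them is given where it moves by more than 1.5 times or turns. Leaving them out does not clear the comparison of epididymal transcripts. Prednisolone mouse 1, at 0.39, stays in, and the principal cell markers then have a median difference of 0.58.

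No pump subunit, cathepsin or Lamp gene passed the adjusted threshold of 0.05 in limma (0 of 36, with 0% of all tested genes called), so none can be said to have changed with prednisolone. The differences were small, under 0.5 on the log2 scale in either direction for 32 of the 36, and most members were higher on average in prednisolone mice. Of the 36, 27 were higher and 9 lower, where 54.6% of all tested genes were higher, and their median difference was 0.11 against 0.02 over all tested genes. Over all 42 the median was 0.08, with 29 higher and 13 lower. At an unadjusted p under 0.05 there were 5 higher members, Ctsd, Ctsl, Ctsz, Atp6v0a1 and Atp6v1e1, and 0 lower ones, against 3.37% and 2.33% of all tested genes. That count of 5 was 2 without prednisolone mouse 3 or 4 and 1 without vehicle mouse 4. The groups did not overlap in 2 members, Ctsd and Atp6v1a, both higher in prednisolone mice, against 1.81% of all tested genes, and in 0 members the other way, against 1.39%. Without the epididymis-rich arrays, 3 prednisolone and 2 vehicle mice remained, 29 members were higher and 7 lower with a median of 0.14, where 53.6% of all tested genes were higher with a median of 0.01. In that fit 1 of 36 members, Atp6v0d2, was higher at an unadjusted p under 0.05, near the 2.04% of all tested genes.

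**Figure D1:**
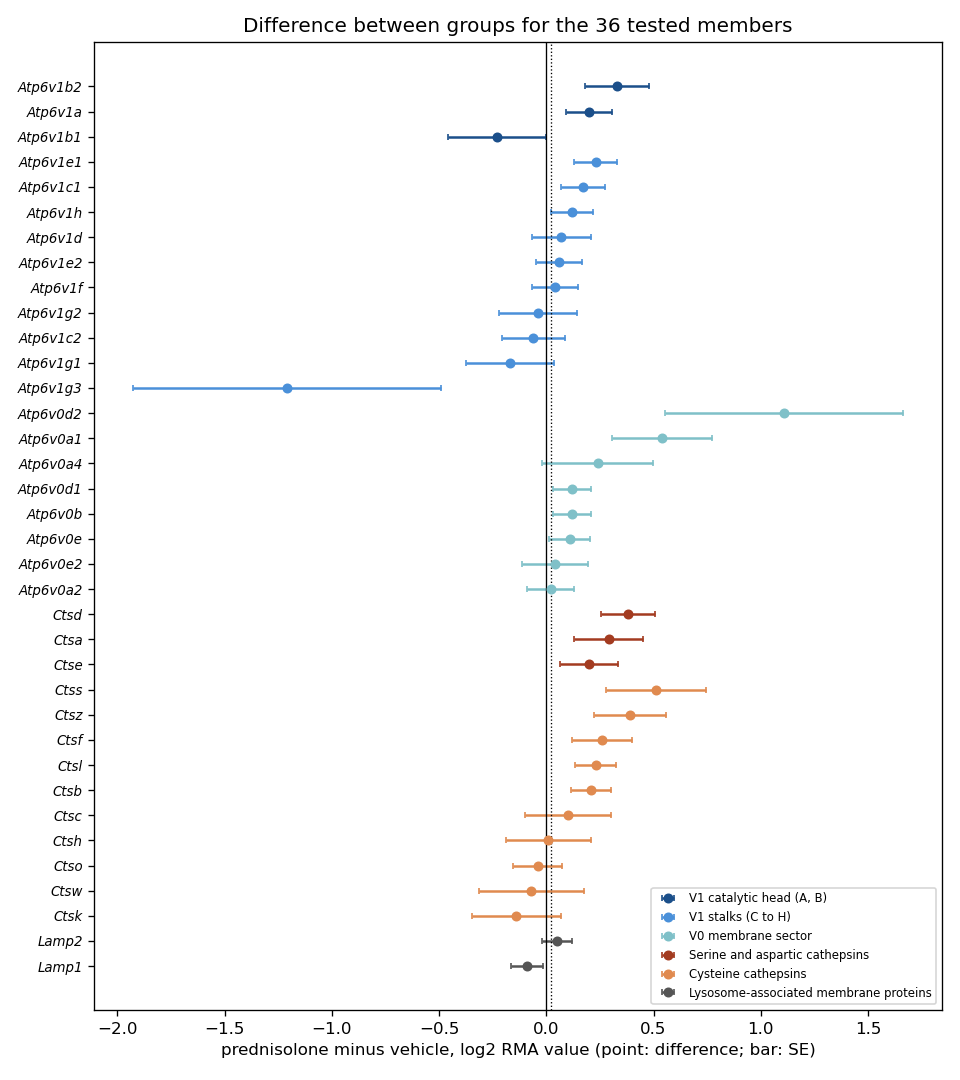
Difference between prednisolone and vehicle means (points, in log2 units) and limma's standard error (bars) for the 36 tested members, coloured by role; the dotted line marks the median of all tested genes, 0.02. Atp6v0d2 lies farthest to the right at 1.11 and Atp6v1g3 farthest to the left at -1.21, both with wide errors. The 8 V0 subunits all lie above 0, where 54.6% of all tested genes do.

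The A and B subunits of the V1 head split the ATP. Atp6v1a, the only gene of catalytic subunit A, read 9.65, 9.69, 10.02 and 9.61 in prednisolone mice 1 to 4 and 9.61, 9.57, 9.59 and 9.41 in vehicle mice 1 to 4. The groups touched, since the lowest prednisolone value was 9.612 and the highest vehicle value 9.611, and prednisolone mouse 3 stood above the rest. The difference was 0.20 ± 0.11 (limma adjusted p = 0.768), and 0.10 without that mouse.

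Atp6v1b2, subunit B of most cells, read 10.37, 10.51, 10.87 and 10.40 in prednisolone and 10.44, 10.36, 10.05 and 9.98 in vehicle mice. Vehicle mice 3 and 4 were the low ones, and vehicle mouse 1 lay inside the prednisolone range. Its difference was 0.33 ± 0.15 (limma adjusted p = 0.768), and a dimmer probe set of the same gene gave 0.13.

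Atp6v1b1, the B isoform of proton-secreting epithelial cells, read 5.96, 6.03, 5.88 and 6.30 in prednisolone and 6.94, 5.93, 5.89 and 6.31 in vehicle mice. Only vehicle mouse 1, an epididymis-rich array, stood apart. The difference of -0.23 ± 0.23 (limma adjusted p = 0.824) became 0.14 ± 0.15 without the epididymis-rich arrays.

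Among the stalk subunits C to H, 6 of 10 were higher and 4 lower in prednisolone mice, where 54.6% of all tested genes were higher. Their median difference was 0.05, close to that of all genes. Atp6v1e1, the E subunit of most cells, read 10.58, 10.60, 10.72 and 10.76 in prednisolone and 10.57, 10.59, 10.25 and 10.33 in vehicle mice. Vehicle mice 3 and 4 were again the low ones, as for Atp6v1b2, and the groups overlapped by the margin between prednisolone mouse 1 and vehicle mouse 2. The difference was 0.23 ± 0.10 (limma adjusted p = 0.768).

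Atp6v1c1, subunit C of most cells, and the regulatory subunit Atp6v1h differed by 0.17 ± 0.10 and 0.12 ± 0.10. The rotor subunits Atp6v1d and Atp6v1f differed by 0.07 ± 0.14 and 0.04 ± 0.11, and the testis isoform Atp6v1e2 by 0.06 ± 0.11. Atp6v1c2, an isoform of few epithelia, and Atp6v1g2, the neuronal G isoform, differed by -0.06 ± 0.15 and -0.04 ± 0.18. None of these 7 had an unadjusted p under 0.05. Without the epididymis-rich arrays Atp6v1d differed by 0.22, Atp6v1e2 by -0.07, Atp6v1g2 by -0.23 and Atp6v1c2 by 0.08.

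Atp6v1g1, the G subunit of most cells, differed by -0.17 ± 0.20, with its highest values of 9.96 and 9.81 in vehicle mice 1 and 4. Both of its dimmer probe sets differed by -0.37. Without the epididymis-rich arrays its difference was 0.11.

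Atp6v1g3, the G isoform of proton-secreting cells, had the sharpest split. It read 5.54, 5.75, 5.14 and 5.18 in prednisolone mice, and 8.35, 5.19, 5.20 and 7.71 in vehicle mice 1 to 4. Vehicle mice 1 and 4 were thus bright and the other 6 arrays dim, so the gene passed the filter on dim genes, a mean of 5.82, through these arrays. The difference of -1.21 ± 0.72 (limma adjusted p = 0.768) was 0.09 ± 0.15 without the epididymis-rich arrays and -0.63 without vehicle mouse 1 alone.

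Of 8 tested markers of proton-secreting cells, 4 had the same 2 brightest arrays as Atp6v1g3: Foxi1, Rhcg, Car12 and Aqp9. Foxi1, the transcription factor of such cells, read 8.98 and 8.59 in vehicle mice 1 and 4 and between 7.12 and 7.37 on the other arrays. The ammonia transporter Rhcg read 11.27 and 10.53 in those mice and at most 7.24 elsewhere. The others did not follow: Ap1m2 and Car2 were also bright in prednisolone mouse 2 (7.78 and 8.82), Car4 was highest in prednisolone mouse 4 (8.93), and Slc4a1 was lowest in vehicle mouse 1 (6.18). Slc4a9, Slc26a4 and Hepacam2 were too dim to be tested. Over all 8 tested markers the mean deviation was 1.48 and 1.03 in these mice and 0.35 in prednisolone mouse 2, against -0.65 to -0.44 in the others. Prednisolone mouse 2, with a principal cell deviation of 2.75, read Atp6v1g3 at 5.75 and Foxi1 at 7.37. The part of attached epididymal tissue in the Atp6v1g3 difference was not tested beyond the fit without these arrays.

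**Figure D2:**
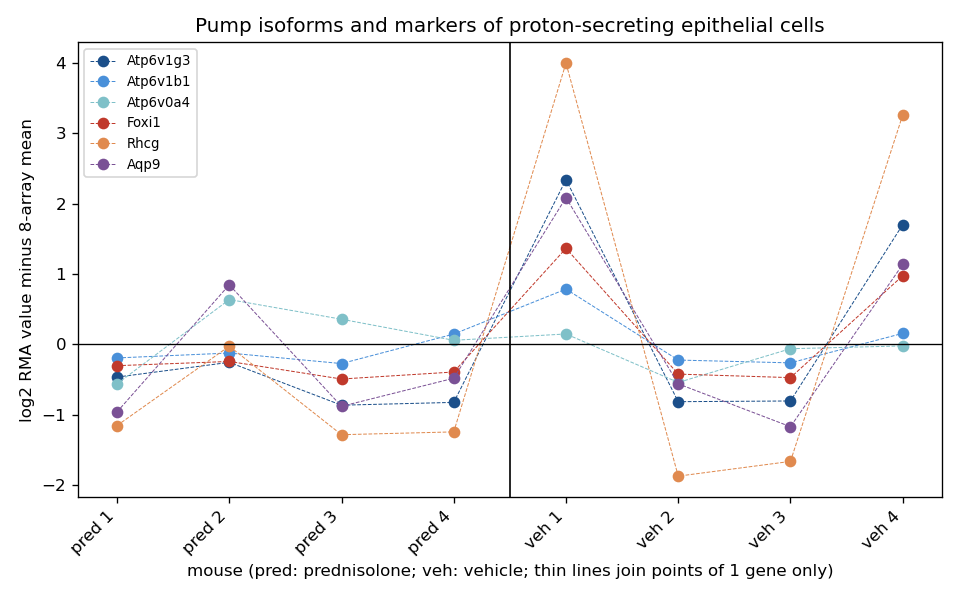
Deviation of each gene from its mean over the 8 arrays (log2 scale) for 3 pump isoforms of proton-secreting cells and for the cell markers Foxi1, Rhcg and Aqp9; thin lines only join the points of 1 gene. Atp6v1g3 and all 3 markers peak in vehicle mice 1 and 4, with Aqp9 nearly as high in prednisolone mouse 2, where Atp6v0a4 is highest.

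All 8 tested V0 subunits were higher on average in prednisolone mice, against 54.6% of all tested genes. Their median difference was 0.12, with a median standard error of 0.13. Of the 8, 1 was higher at a limma unadjusted p under 0.05, against 3.37% of all tested genes. Atp6v0a1, an isoform of the subunit that lines the proton path, read 10.73, 10.91, 11.69 and 10.96 in prednisolone and 10.89, 10.71, 10.27 and 10.24 in vehicle mice. Prednisolone mouse 3 was far above the rest, vehicle mice 3 and 4 were low, and the other 5 mice overlapped. The difference was 0.54 ± 0.23, a 1.46-fold higher signal (limma unadjusted p = 0.0476, adjusted p = 0.768). It was 0.34 without prednisolone mouse 3 and 0.63 ± 0.30 without the epididymis-rich arrays.

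Atp6v0d2, the d isoform of osteoclasts, macrophages and some epithelia, had the largest positive difference and the widest range of all 36, from 6.42 to 9.77. It read 7.90, 9.77, 9.07 and 8.22 in prednisolone and 8.76, 6.42, 7.37 and 7.97 in vehicle mice. The groups overlapped through vehicle mice 1 and 4, and the dimmest mouse was vehicle mouse 2. The difference was 1.11 ± 0.56, or 2.15-fold (limma unadjusted p = 0.0799, adjusted p = 0.768). It was 0.71 without vehicle mouse 2. Without the epididymis-rich arrays, with 3 prednisolone and 2 vehicle mice left, it was 1.5 ± 0.42 (limma unadjusted p = 0.0114, adjusted p = 0.957).

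Atp6v0a4, the a isoform of proton-secreting epithelial cells, differed by 0.24 ± 0.26 and read highest, 6.81, in prednisolone mouse 2. Its difference was 0.07 without that mouse and 0.47 without prednisolone mouse 1. It did not follow Atp6v1g3, reading 6.32 and 6.15 in vehicle mice 1 and 4. The widely used subunits were steadier. Atp6v0b, a proteolipid of the rotor ring, differed by 0.12 ± 0.09, Atp6v0d1 by 0.12 ± 0.09 and Atp6v0e by 0.11 ± 0.10. Atp6v0a2 and Atp6v0e2 differed by 0.02 ± 0.11 and 0.04 ± 0.15, the latter by 0.24 without the epididymis-rich arrays.

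Across the 21 pump subunits prednisolone mouse 3 was the highest array for 8 and vehicle mouse 3 the lowest for 8, followed by vehicle mouse 4, the lowest for 6. Vehicle mouse 1 was the highest for 5 and the lowest for 0. Vehicle mouse 1 and prednisolone mouse 3 also had the highest deviations of spermatid and sperm markers (1.61 and 0.93). The part of such tissue in the pump values was not tested. Mean deviations of the 21 subunits were 0.25, -0.17, -0.26 and 0.00 in vehicle mice 1 to 4. In prednisolone mice 1 to 4 they were -0.09, 0.13, 0.14 and -0.01. These means include Atp6v1g3, which read 8.35 and 7.71 in vehicle mice 1 and 4 against an 8-array mean of 6.01. The mean deviations of those 2 mice thus rest in part on this gene.

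**Figure D3:**
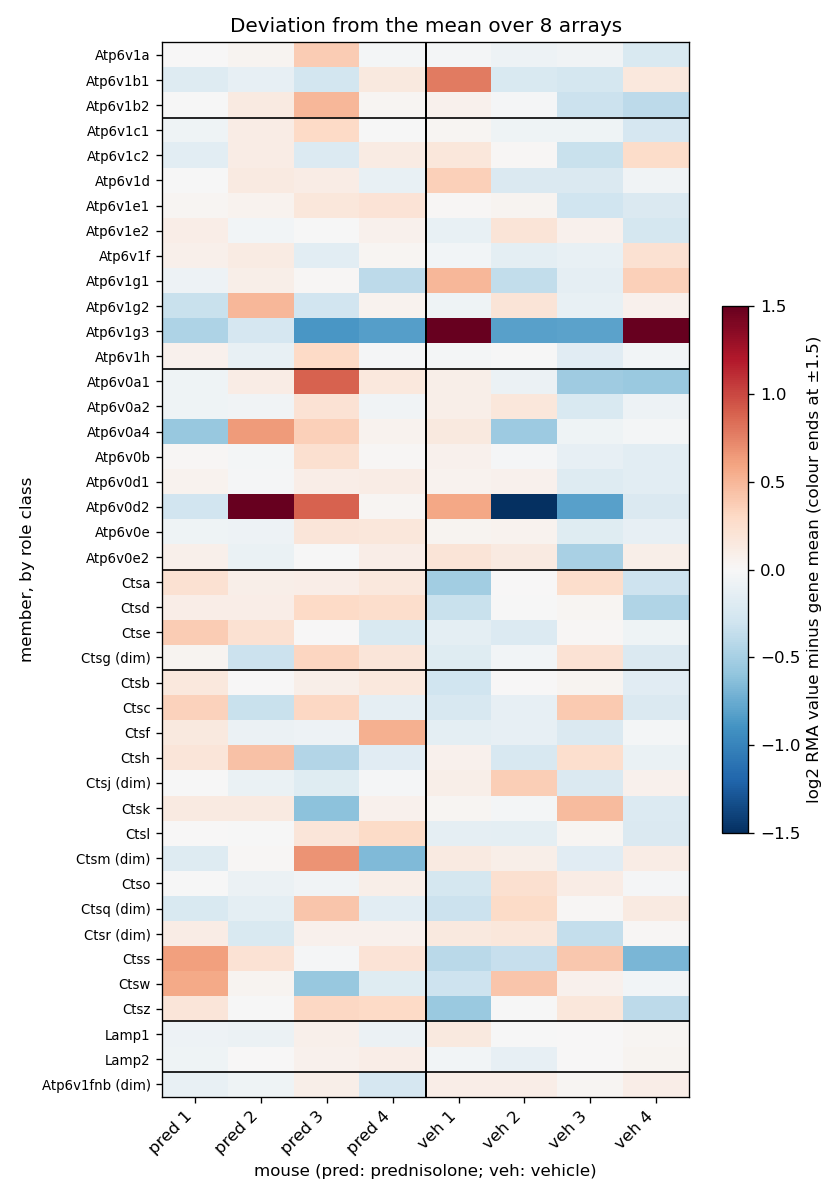
Deviation of each of the 42 members (rows, by role) from its mean over the 8 arrays (columns), in log2 units, red above and blue below; colours end at 1.5 either way, and genes marked dim were not tested. Prednisolone mouse 3 is the highest array in 8 of the 21 pump rows, several cathepsin rows are blue in vehicle mice 1 and 4, and Atp6v1g3 is red in those 2 mice only.

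Cathepsins are proteases of 3 chemical classes, and 10 of 13 tested were higher on average in prednisolone mice, with a median difference of 0.21. Over all tested genes 54.6% were higher, with a median of 0.02. Without the epididymis-rich arrays 9 cathepsins were higher and 4 lower, with a median of 0.12, where 53.6% of all tested genes were higher. Cathepsin D (Ctsd), the main aspartic protease of lysosomes, had the lowest p of all 36. It read 12.77, 12.76, 12.97 and 12.93 in prednisolone and 12.33, 12.66, 12.69 and 12.22 in vehicle mice. The groups did not overlap, with vehicle mice 2 and 3 just below the prednisolone range and vehicle mice 1 and 4 well below. The difference was 0.38 ± 0.12, or 1.30-fold (limma unadjusted p = 0.0149, adjusted p = 0.768), and 0.22 ± 0.11 without the epididymis-rich arrays.

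Ctsa, the serine carboxypeptidase that protects beta-galactosidase and neuraminidase, read 10.77, 10.62, 10.63 and 10.70 in prednisolone and 10.01, 10.54, 10.80 and 10.22 in vehicle mice. The highest value of all was in vehicle mouse 3, and the prednisolone mice lay close together between vehicle mice 2 and 3. Its difference of 0.29 ± 0.16 was 0.03 ± 0.12 without the epididymis-rich arrays. Ctse, an aspartic protease whose mean of 5.83 lay just above the filter, differed by 0.20 ± 0.14.

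Of the 10 tested cysteine cathepsins 7 were higher and 3 lower, where 54.6% of all tested genes were higher. Cathepsin S (Ctss), which trims the invariant chain of MHC class II in antigen-presenting cells, read 11.09, 10.70, 10.46 and 10.69 in prednisolone and 10.07, 10.14, 10.89 and 9.80 in vehicle mice. Vehicle mouse 3 was second highest of all mice, and the other 3 vehicle mice were below every prednisolone mouse. The difference was 0.51 ± 0.23 (limma unadjusted p = 0.0606, adjusted p = 0.768), 0.73 without vehicle mouse 3 and 0.23 ± 0.28 without the epididymis-rich arrays.

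Cathepsin Z (Ctsz), a carboxypeptidase of myeloid cells, read 11.26, 11.07, 11.38 and 11.37 in prednisolone and 10.52, 11.07, 11.25 and 10.68 in vehicle mice, again with vehicle mice 1 and 4 low. Its difference was 0.39 ± 0.17 (limma adjusted p = 0.768), and 0.18 ± 0.11 without the epididymis-rich arrays.

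Cathepsin L (Ctsl), a broad endopeptidase, read 11.26, 11.25, 11.44 and 11.55 in prednisolone and 11.12, 11.11, 11.29 and 11.04 in vehicle mice. Only vehicle mouse 3 reached into the prednisolone range. The difference of 0.23 ± 0.10 (limma adjusted p = 0.768) was 0.21 ± 0.13 without the epididymis-rich arrays.

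Cathepsin B (Ctsb), an abundant endopeptidase and carboxypeptidase, read 13.72, 13.57, 13.65 and 13.72 in prednisolone and 13.26, 13.56, 13.60 and 13.39 in vehicle mice. Vehicle mice 2 and 3 were near the prednisolone mice and vehicle mice 1 and 4 below them. It differed by 0.21 ± 0.09 (limma adjusted p = 0.768), and by 0.12 ± 0.10 without the epididymis-rich arrays.

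Cathepsin K (Ctsk), the collagenase of osteoclasts, differed the other way from most. It read 7.95, 7.95, 7.20 and 7.87 in prednisolone and 7.84, 7.78, 8.29 and 7.61 in vehicle mice, with prednisolone mouse 3 low and vehicle mouse 3 high. Its difference was -0.14 ± 0.21 (limma adjusted p = 0.877), 0.04 without prednisolone mouse 3 and -0.36 ± 0.27 without the epididymis-rich arrays.

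Ctsf differed by 0.26 ± 0.14, read highest, 9.37, in prednisolone mouse 4, and differed by 0.12 without that mouse. Ctsc, which activates granule serine proteases, differed by 0.10 ± 0.20, and Ctsh, an aminopeptidase, by 0.01 ± 0.20, which was -0.16 without the epididymis-rich arrays. Ctsw, of cytotoxic lymphocytes, differed by -0.07 ± 0.24 and Ctso by -0.04 ± 0.11, and by -0.30 and -0.18 without the epididymis-rich arrays. Placental Ctsj, Ctsm, Ctsq and Ctsr and neutrophil Ctsg had means between 3.45 and 4.75, below the filter, and were not tested. Ctsm was the most variable of these, from 2.79 to 4.12, both in prednisolone mice. Atp6v1fnb, at a mean of 5.13, was the other untested gene, and read 5.02, 5.06, 5.22 and 4.87 in prednisolone and 5.23, 5.23, 5.16 and 5.23 in vehicle mice.

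**Figure D4:**
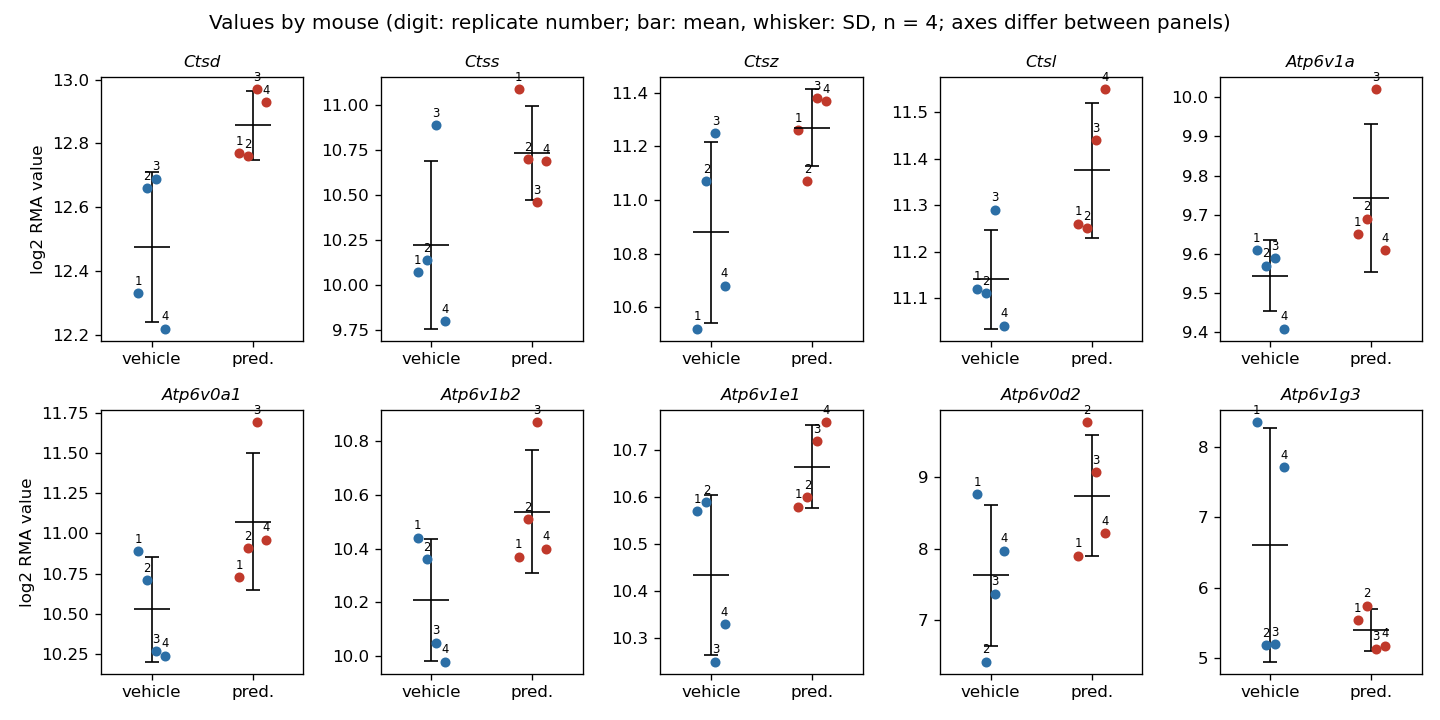
Log2 values by mouse for 5 cathepsin and pump genes in each row, with the replicate number beside each point, the group mean (bar) and its SD (whisker, n = 4); the vertical axes differ and do not start at 0. Ctsd and, barely, Atp6v1a have no overlap between groups, vehicle mice 1 and 4 are the lowest for Ctsd and Ctsz, and only vehicle mice 1 and 4 are bright for Atp6v1g3.

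Macrophages are rich in lysosomes, and in the vehicle group macrophage markers and cathepsins were both low in mice 1 and 4 and high in mouse 3. The mean deviation of 29 tested macrophage markers read -0.47, -0.15, 0.47 and -0.49 in vehicle mice 1 to 4, and that of the 13 cathepsins -0.25, -0.04, 0.16 and -0.22. In prednisolone mice 1 to 4 the macrophage markers read 0.35, 0.01, 0.30 and -0.03 and the cathepsins 0.23, 0.06, -0.04 and 0.10. Mouse 1 was highest for both there, but mouse 3 was second for macrophage markers and lowest for cathepsins. Cd68, a glycoprotein of macrophage lysosomes that is also on the list of lysosomal membrane proteins, read 11.69 in vehicle mouse 3 and 9.92 in vehicle mouse 4. Of the macrophage markers 26 of 29 were higher in prednisolone mice, against 54.6% of all tested genes, with a median difference of 0.27. None passed the adjusted threshold. At a limma unadjusted p under 0.05, 5 were higher and 0 lower, against 3.37% and 2.33% of all tested genes. The groups did not overlap in 2 markers, both higher, against 1.81% of all tested genes. Without the epididymis-rich arrays 10 markers were higher and 19 lower, with a median of -0.07, while the cathepsin median was 0.12. In that fit 3 markers were higher and 0 lower at a limma unadjusted p under 0.05. Over all 14787 tested genes, 302 were higher and 195 lower at that p. The pump subunits had a different order, with vehicle mouse 3 lowest (-0.26). Vehicle mouse 1 had the highest pump mean (0.25), ahead of prednisolone mouse 3 (0.14), but these means include Atp6v1g3. That gene read 8.35 in vehicle mouse 1 and 5.14 in prednisolone mouse 3. Whether vehicle mouse 1 stays highest without Atp6v1g3 was not tested, so its top place is not set against the macrophage order. All 29 macrophage markers on the array passed the filter on dim genes, and the part of macrophage content in the cathepsin values was not tested.

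**Figure D5:**
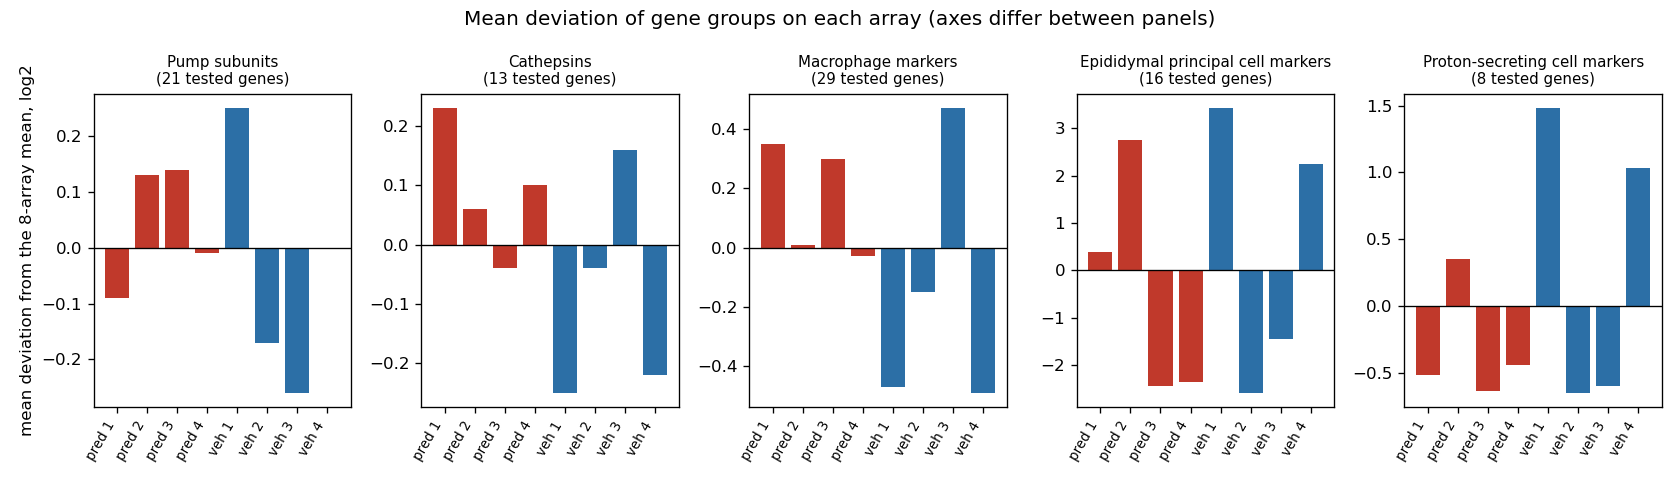
Mean deviation from the 8-array mean (log2 units) on each array for pump subunits, cathepsins and 3 lists of cell markers, prednisolone in red and vehicle in blue; the axes differ between panels. Cathepsins and macrophage markers are lowest in vehicle mice 1 and 4 and high in vehicle mouse 3, while pump subunits are lowest in vehicle mice 2 and 3.

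Lamp1 and Lamp2, heavily glycosylated proteins that make up much of the lysosomal membrane, were among the steadiest members. Lamp1 read 12.02, 12.01, 12.17 and 12.01 in prednisolone and 12.25, 12.09, 12.11 and 12.13 in vehicle mice, so 3 of the 4 prednisolone mice were below every vehicle mouse. Its difference was -0.09 ± 0.07 (limma adjusted p = 0.794), and -0.03 without the epididymis-rich arrays. Lamp2 read 10.84, 10.91, 10.96 and 11.00 in prednisolone and 10.86, 10.78, 10.91 and 10.94 in vehicle mice, a difference of 0.05 ± 0.07 (limma adjusted p = 0.865), and 0.08 without the epididymis-rich arrays. Their ranges over all 8 arrays were 0.24 and 0.21, against a median range of 0.53 over all tested genes and 0.65 over the 36.

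The other genes of the lysosome gave similar small values, and 0 passed the adjusted threshold in any of 6 lists. Of 33 other tested hydrolases 30 were higher and 3 lower (median 0.14), with 5 higher at an unadjusted p under 0.05, against 54.6% and 3.37% of all tested genes. That median was 0.08 without vehicle mouse 1 and 0.08 without the epididymis-rich arrays. Lipa, the acid lipase that frees cholesterol and fatty acids, had the lowest p (0.56 ± 0.19, limma adjusted p = 0.768). Other membrane proteins numbered 23 higher and 8 lower (median 0.10), led by the peptide transporter Abcb9 at 0.33 ± 0.13. Enzyme sorting genes numbered 9 higher and 4 lower (median 0.11), with progranulin (Grn) at 0.27 ± 0.14. The partners and assembly factors of the pump numbered 11 higher and 4 lower (median 0.05), with Tmem199 at 0.24 ± 0.18. TFEB, its relatives and the nutrient sensors on the lysosome numbered 13 higher and 6 lower (median 0.08), with the folliculin partner Fnip2 at 0.16 ± 0.09. Cathepsin inhibitors numbered 7 higher and 2 lower (median 0.11), with Serpinb1a at 0.44 ± 0.21.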

How the data were processed

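Log2 values were deposited; per the labels, Expression Console computed them by robust multiarray averaging (RMA) from 100 ng of total RNA per array. RMA equalises the distributions of the arrays, so a shift common to all genes is removed, and it compresses differences at low signal. Per the submitters' processing notes Partek 6.6 was also used, with no role given; which annotation and build were used is not given in the sources used here.

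Probe sets were named from GEO's platform annotation: 23521 of 41345 had 1 symbol, and the one with the highest mean over 8 arrays was kept per gene (2 of the 42 genes had several). Genes with a mean under 5.82 were left out, leaving 14787. Groups were compared with limma 3.58.1 in R 4.3.3 (lmFit, eBayes, no covariate), with Benjamini-Hochberg adjustment and a threshold of 0.05, after the same steps were tested on simulated data. The number of arrays limits the precision; the median standard error was 0.12. The genes and lists were chosen with earlier results of these data known. Every gene of the set was accounted for; array values are given for the lowest p and widest range in each role, for groups that do not overlap, and for 9 fixed genes (Atp6v1b1, Atp6v0d2, Ctsk, Ctss, Ctsd, Ctsb, Ctsl, Lamp1, Lamp2), and Ctsz, Atp6v1g1 and Atp6v0a4 were added after their values were seen. From each other lysosomal list the member with the lowest p is named. Alternatives changed the dim-gene filter, normalization, probe set choice, variance model, array weights and replicate block, and left out each mouse. After seeing the data, the 3 arrays with an epididymal score over 1 were left out. Promoters came from RefSeq, GRCm38.p6. Figures used matplotlib 3.10.9.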

Additional observations from a re-analysis of the deposited data

Results flagged for a closer look

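In groups of 4, a mouse was singled out where its gap to the nearest mouse was too large a share of the range of its group by Dixon's criterion. Of 84 groups (42 genes in 2 groups) 9 were singled out, where chance gives about 1 in 20. The 84 come from the same 8 arrays and are not independent, so the count cannot be read as an excess. Prednisolone mouse 3 was high for Atp6v0a2 (9.50, the others 9.22 to 9.24), Lamp1 (12.17, the others 12.01 to 12.02) and Ctsq (3.90, the others 3.26 to 3.34), and low for Ctsk (7.20, the others 7.87 to 7.95). Vehicle mouse 3 was low for Atp6v0e2 (9.75, the others 10.32 to 10.43), Atp6v1h (8.77, the others 8.90 to 8.93), Ctsm (3.28, the others 3.54 to 3.58) and Atp6v1fnb (5.16, the others 5.23). Prednisolone mouse 2 was low for Ctsr (4.48, the others 4.77 to 4.82). Ctsq, Ctsm, Ctsr and Atp6v1fnb are among the genes too dim to be tested.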

How the results depend on the processing

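No member passed an adjusted p of 0.05 in limma under any of the 16 alternatives, the lowest being 0.355. The count of members higher at an unadjusted p under 0.05, 5 of 36, was 9 with array weights, 1 with the replicate block and 1 without the 3 epididymis-rich arrays, and ran from 1 to 6 without 1 mouse. The count of lower members, 0, was 1 with array weights and ran from 0 to 1 without 1 mouse. The median difference of 0.11 lay between 0.08 and 0.15. The replicate numbers do not pair the mice: correlations of same-numbered deviations were -0.192, -0.578, 0.13 and -0.276, and 0 of 4 mice correlated best with their own number. Signs turned with array weights for Atp6v1f (-0.03), Ctsk (0.03) and Ctsw (0.09). They turned without the epididymis-rich arrays for Atp6v1b1 (0.14), Atp6v1c2 (0.08), Atp6v1e2 (-0.07), Atp6v1g1 (0.11), Atp6v1g3 (0.09) and Ctsh (-0.16). Without 1 mouse in turn, differences crossed 0 for Atp6v0a2 (-0.05 to 0.08), Atp6v0e2 (-0.12 to 0.11), Atp6v1c2 (-0.18 to 0.02), Atp6v1e2 (-0.02 to 0.13), Atp6v1f (-0.0049 to 0.12), Atp6v1g2 (-0.21 to 0.06), Ctsc (-0.0012 to 0.25), Ctsh (-0.14 to 0.16), Ctsk (-0.23 to 0.04), Ctso (-0.13 to 0.04) and Ctsw (-0.27 to 0.11). The cause of these changes was not tested. The other 22 members kept their direction throughout.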
